A study of Mus musculus with 2 samples.

Results

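The glutathione, sulfo- and glucuronosyl transferases are the enzyme families that attach glutathione, sulfate or glucuronic acid to drugs, hormones and reactive products of metabolism. The members were taken by symbol: the cytosolic and mitochondrial glutathione transferases (Gst, classes a, k, m, o, p, t and z), the sulfotransferases (Sult) and the UDP-glucuronosyltransferases (Ugt), each with at least 1 protein-coding transcript. This gave 65 genes of 55450 annotated genes, 22 of them Gst, 21 Sult and 22 Ugt. The rule used names and annotation and no measured value. A further 7 rows with matching symbols had no protein-coding transcript and were left out.

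The tissue was whole adrenal gland, taken at 2 months of age from female mice of strain B6CASTF1/J, an F1 hybrid of the B6 and CAST strains, with no treatment named. The 2 replicates, here animal 1 and animal 2, formed 1 group, each sequenced as 1 total RNA library made from 300 ng of RNA after ribosomal RNA reduction. The labels conflict on whether the replicates came from different animals: the library descriptions give both the same animal number and the donor entry is shared, while the biosample descriptions give different numbers. The spread between them may therefore be technical, and no test between groups was possible. Levels are TPM, a transcript number scaled for length, as mean ± SD of the libraries (n = 2). Ratios between animals are of expected counts scaled by the trimmed mean of M-values, with 95% intervals that cover counting error only.

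The libraries held 34195089 and 35950207 expected counts on genes. A count of 0 allows a level of up to 3 counts, equal to 0.0860 CPM in the library of animal 1 and 0.0851 CPM in that of animal 2. Nuclear protein-coding genes took 31.7% and 35.6% of TPM, so the TPM of an unchanged mRNA can differ between the libraries. The adrenal label was met by its markers: all 10 adrenal cortex markers were above 1 TPM in both libraries, and their summed level was 18569 TPM in animal 1 and 20900 TPM in animal 2. All 8 chromaffin markers were also above 1 TPM, at 1835 and 1499 TPM summed. Markers of several other cell types differed between the animals, and their values stand beside the results they move with. The summed counts of 3 markers of the X zone, the inner cortex of young female mice, were 1.46-fold higher in animal 1. Most of that sum was Akr1c18, with 88837 and 59898 counts. Pik3c2g was 1.54-fold higher in animal 1, and Thrb was 1.15-fold higher in animal 2. In whole tissue, fewer cells of a type and less RNA per cell cannot be told apart.

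As background, glutathione transferases work in the cytosol, mitochondria and peroxisomes and join glutathione to electrophiles such as lipid peroxidation products. Sulfotransferases use activated sulfate (PAPS) to inactivate or store steroids, catecholamines and phenols. UDP-glucuronosyltransferases sit in the endoplasmic reticulum and use UDP-glucuronate to make bilirubin, steroids and drugs water-soluble. The adrenal cortex makes steroids with mitochondrial cytochromes that leak reactive oxygen, and in humans it exports much of its androgen precursor as a sulfate made by SULT2A1.

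The glutathione transferases made up nearly all of the transcripts of the families. Their summed level was 690 TPM in animal 1 and 827 TPM in animal 2, against 25.7 and 25.7 TPM for the sulfotransferases and 28.2 and 26.8 TPM for the glucuronosyltransferases. The Gst sum was 0.225% ± 0.0103 of nuclear protein-coding TPM (n = 2). The Sult sum was 0.00766% ± 0.000616 and the Ugt sum 0.00819% ± 0.000958. Thus the Gst sum stood far above the other sums in both animals. The Ugt sum was slightly above the Sult sum in TPM in each animal, and the ranges of their shares overlapped. By share of expected counts, which do not divide by length, Ugt stood at 0.00886% and Sult at 0.00451%. Of the 65 members, 24 were at 1 TPM or more in both animals, namely 17 Gst, 4 Sult and 3 Ugt. The mean was under 1 TPM for 40 members, and 8 had 0 counts in both libraries: Gstt4, Sult1c1, Sult2a2, Sult2a3, Sult6b2, Ugt1a8, Ugt2a1 and Ugt2a2.

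Of all members, 31 had a mean under 20 counts. Of these, 23 had counts in at least 1 library, and the highest level among them in either library was 0.79 TPM.

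**Figure D1:**
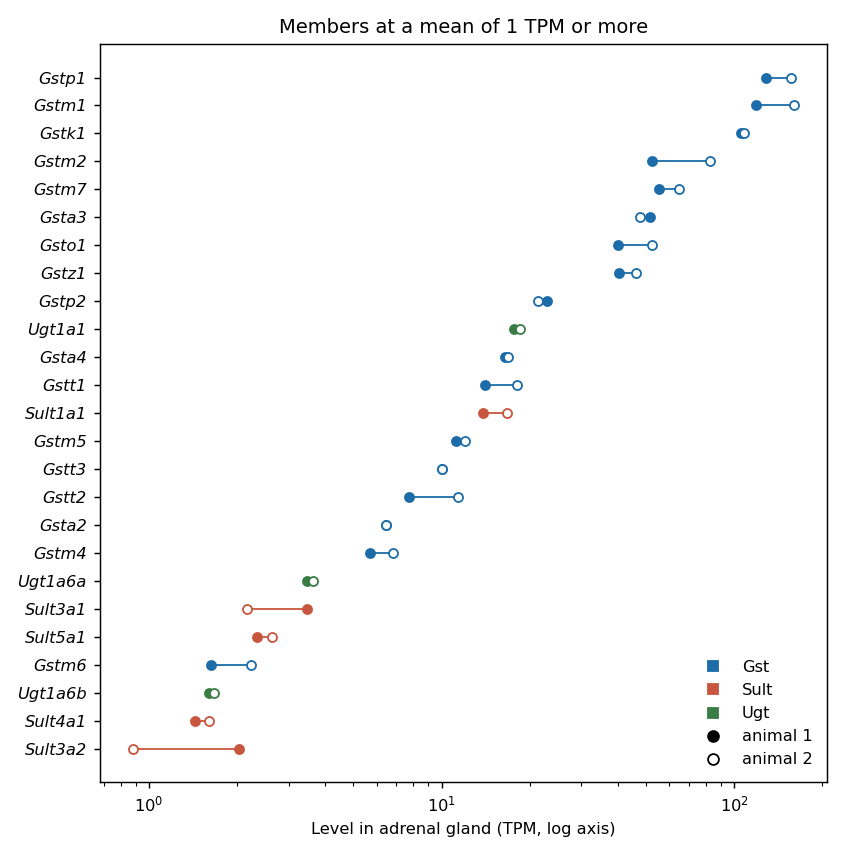
Level of the 25 members with a mean of at least 1 TPM (log axis), in animal 1 (filled) and animal 2 (open), coloured by family. The highest 9 genes are Gst genes, Ugt1a1 and Sult1a1 are the highest of their families at 18.1 and 15.3 TPM, and Sult3a1 and Sult3a2 are the genes with the visible excess in animal 1.

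Gstp1, the pi class enzyme that detoxifies electrophiles and is often induced in stressed tissue, was at 129 TPM in animal 1 and 157 TPM in animal 2 (143 ± 19.8). On mm10 it spans chr19:4035407-4037985. Its rank among nuclear protein-coding genes was 355 by mean level. Gstm1, a mu class enzyme of the same cytosolic kind, was at 119 TPM in animal 1 and 161 TPM in animal 2 (140 ± 29.6). Their ranges overlapped, so the order of these leading genes was not resolved. Gstk1, the kappa class enzyme of mitochondria and peroxisomes, was at 105 and 108 TPM (107 ± 2.14), below both and above the rest in each animal. These 3 genes held 51.1% of Gst TPM in animal 1 and 51.5% in animal 2.

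The alpha class included Gsta3, whose human counterpart isomerises ketosteroids during steroid synthesis. Gsta3 was at 51.5 TPM in animal 1 and 47.8 TPM in animal 2 (49.6 ± 2.63). Gsta4, which acts on the lipid peroxidation product hydroxynonenal, was at 16.4 and 16.9 TPM (16.7 ± 0.368). Gsta2 was at 6.46 and 6.45 TPM, and Gsta1 at 0.23 and 0.45 TPM. Gsta4 took 71.0% of the TPM of the Gsta genes on chromosome 9 in either animal. The alpha class thus had 1 leading gene on chromosome 1 and a lower group on chromosome 9, with little difference between the animals in that split.

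The omega and zeta classes carry out reactions other than plain conjugation. Gsto1, which reduces dehydroascorbate and arsenic compounds, was at 39.9 TPM in animal 1 and 52.5 TPM in animal 2 (46.2 ± 8.87). Its neighbour Gsto2 was at 0.96 and 0.73 TPM, so Gsto1 held 97.7% and 98.6% of that pair's TPM. Gstz1, the maleylacetoacetate isomerase of tyrosine breakdown, was at 40.5 and 46.1 TPM (43.3 ± 3.94). The ranges of Gsto1 and Gstz1 overlapped, as did those of Gsta3 and Gsto1. In the theta class, Gstt1 was at 14.1 and 18.0 TPM (16.1 ± 2.81). Gstt3 was at 10.02 TPM in both animals, and Gstt2 was at 7.71 and 11.4 TPM. The expected counts of Gstt2 were 255 and 248, so its difference in TPM was not one of counts. In animal 2, 40.7% of its TPM was given to Gstt2-206, a processed transcript of 416 bases that had 0% in animal 1. The second quantification gave that transcript 0% in animal 1 and 3.08% in animal 2.

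The mu class lies in 1 cluster on chromosome 3 and was the most abundant class, at 245 TPM summed in animal 1 and 329 TPM in animal 2. Gstm2 was at 52.3 TPM in animal 1 and 83.0 TPM in animal 2 (67.6 ± 21.7). Gstm7 was at 55.3 and 64.6 TPM (60.0 ± 6.55), and the ranges of these genes overlapped. Gstm5 was at 11.2 and 12.0 TPM, Gstm4 at 5.69 and 6.85 TPM, and Gstm6 at 1.63 and 2.24 TPM. Gstm3 had 0 and 1.03 counts. Gstm1 took 48.5% and 48.8% of the cluster's TPM. Gstm2 took 21.4% in animal 1 and 25.2% in animal 2, while Gstm7 took 22.6% and 19.6%, so the second place in the cluster changed hands between the animals.

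By scaled counts, the whole mu cluster was 1.26-fold higher in animal 2 (95% interval 1.23 to 1.30), with summed counts of 9342 and 11903. Of its 6 genes that averaged 20 counts or more, 6 were higher in animal 2, against 47.3% of 15658 genes. They ran from 1.01-fold for Gstm5 to 1.495-fold for Gstm2 (interval 1.41 to 1.59). The intervals of Gstm5 (0.863 to 1.18), Gstm4 (0.983 to 1.34) and Gstm6 (0.907 to 1.83) held 1. Gstm5 was lower in animal 2 with TPM rescaled to nuclear protein-coding genes, at a log2 ratio of -0.07, and with the second quantification, at -0.08. Gstm1 had a ratio of 1.29 in favour of animal 2 (interval 1.24 to 1.34). The other Gst classes lay closer together: the pi class sum was 1.00-fold and the omega sum 1.16-fold that of animal 1, and Gsta3 was 1.19-fold higher in animal 1. Brown adipocyte markers were also higher in animal 2, at 653 TPM summed in animal 1 and 1270 TPM in animal 2, with 5 of 6 over 1.5-fold higher and none at 0. The 6 erythroid markers were 1.59-fold higher in animal 2 by summed counts, at 1133 and 1994 TPM summed, with none at 0. Of the chromaffin markers, 8 of 8 were higher in animal 1, and their median log2 ratio was -0.34. The part of any of these in the mu class difference was not tested.

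Windows of 250 bases before to 50 bases after each start were taken from RefSeq on GRCm38.p6, and 57 of the 65 members had 1 or more, giving 68 windows. The core of the antioxidant response element bound by Nfe2l2 with small Maf proteins was searched as TGACNNNGC on both strands. It occurred in the windows of Gsta3, Gstm5 and Gstm7, which is 4.41% of member windows against 12.4% of 32851 windows of all genes. The match stood 121 bases before the start of Gsta3, 129 before that of Gstm7 and 42 before that of Gstm5. These stretches of 60 bases, read along each gene's strand with the match in capitals, show that the 3 matches differ in their free letters.
Gsta3: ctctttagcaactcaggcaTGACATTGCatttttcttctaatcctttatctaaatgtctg
Gstm7: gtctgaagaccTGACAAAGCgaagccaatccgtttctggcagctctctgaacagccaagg
Gstm5: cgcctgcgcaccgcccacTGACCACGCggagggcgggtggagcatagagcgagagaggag
They lie at chr1:21240445-21240504 on the plus strand, chr3:107931695-107931754 on the minus strand and chr3:107895794-107895853 on the plus strand. A match is a description of letters and not a shown binding site.

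The pi class holds 3 genes on chromosome 19, of which Gstp1 and Gstp2 are near copies. Gstp2 was at 22.9 TPM in animal 1 and 21.3 TPM in animal 2 (22.1 ± 1.16), and Gstp3 at 0.65 and 0.79 TPM, each from 13 counts. Gstp1 took 84.5% and 87.7% of the pi class TPM. Of the distinct 75-base stretches of Gstp2 transcripts, 44.9% also occur in Gstp1 transcripts, and 29.2% of those of Gstp1 occur in Gstp2. The split between them was therefore uncertain: the authors' deposited bounds on the Gstp2 level were 18.1 to 39.3 TPM in animal 1 and 17.1 to 54.9 TPM in animal 2.

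The second deposited quantification divided the pair differently. Nuclear protein-coding genes took 60.9% and 58.1% of TPM in it, so its TPM are not on the scale of the first. That quantification gave Gstp2 43.0 TPM in animal 1 and 120 TPM in animal 2, and Gstp1 321 and 310 TPM. Gstp2 was thus 1.27-fold higher in animal 1 by the first quantification (interval 1.10 to 1.46) and 2.75-fold higher in animal 2 by the second (interval 2.33 to 3.26). Summed over both genes, a step chosen after the values were seen, animal 2 was 0.998-fold animal 1 in the first (0.950 to 1.05) and 0.938-fold in the second (0.893 to 0.984). The sum was thus far steadier than the split.

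**Figure D2:**
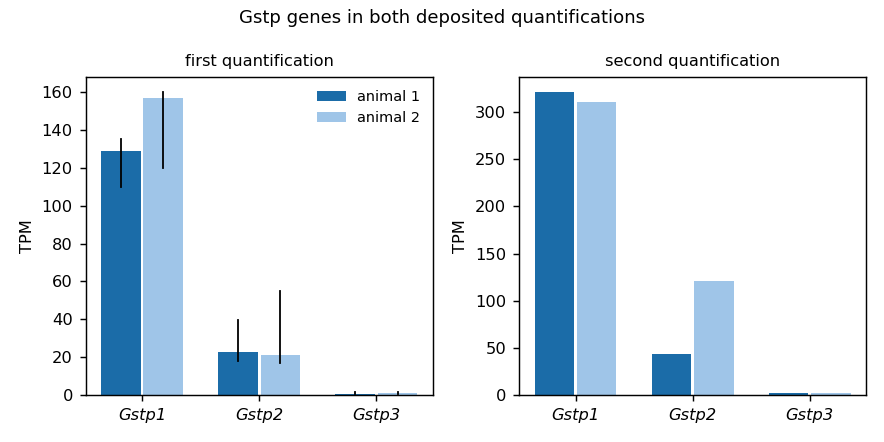
Level of Gstp1, Gstp2 and Gstp3 in TPM in each animal, in the first (left) and second (right) deposited quantification. Lines on the left are the authors' deposited TPM bounds, and the scales of the panels differ. Gstp2 is similar in both animals on the left, at 22.9 and 21.3 TPM, and far apart on the right, at 43.0 and 120 TPM.

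The 120 bases before the RefSeq starts of the pi class genes are shown because Gstp1 and Gstp2, but not Gstp3, hold the letters of a TGANTCAGC element in them. This pattern, of the kind bound by Nfe2l2 and related factors, was chosen after the sequences were seen. The matched letters, in capitals, do not match TGACNNNGC.
Gstp1: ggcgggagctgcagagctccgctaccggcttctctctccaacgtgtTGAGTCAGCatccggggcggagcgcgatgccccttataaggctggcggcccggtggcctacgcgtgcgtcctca
Gstp2: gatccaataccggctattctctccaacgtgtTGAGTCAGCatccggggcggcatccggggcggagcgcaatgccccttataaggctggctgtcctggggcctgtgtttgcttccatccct
Gstp3: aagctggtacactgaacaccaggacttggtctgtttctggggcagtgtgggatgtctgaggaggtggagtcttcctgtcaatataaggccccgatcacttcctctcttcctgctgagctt
The stretches lie at chr19:4037913-4038032, chr19:4042222-4042341 and chr19:4059448-4059567, all on the minus strand. The match began 74 bases before the start of Gstp1 and 89 before that of Gstp2, and 1.19% of all windows hold the pattern on either strand. Over the full windows Gstp1 and Gstp2 were 77.1% identical, against 52.3% for Gstp1 and Gstp3. The pair with like upstream sequence were the abundant genes of the class, and Gstp3 was under 1 TPM, a description of 3 genes only.

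Among the transcripts of the 15 members at 10 TPM or more, the leading one held at least 90% of the gene's TPM in both animals for 10. The other 5 were Gsta3, Gstm1, Gsto1, Gstp1 and Gstp2. These shares depended on the quantification: in the second, the same transcripts held at least 90% in both animals for 5 of the 15, namely Gstm1, Gstm5, Gstt1, Gstt3 and Ugt1a1. There Gsta4-201 held 67.2% and 68.2%, against 100% in the first, and Gstp2-201 held 1.34% and 0%, against 65.4% and 61.1%. Gsta3 was split between Gsta3-202, at 55.8% and 64.9%, and the longer Gsta3-201, at 38.9% and 32.9%, both protein-coding. For Gstm1, Gstm1-204, a processed transcript with no annotated protein, took 16.2% and 13.1%, and 5.66% and 7.80% in the second quantification. Gsto1 differed more between the animals, with the coding Gsto1-201 at 74.7% in animal 1 and 49.7% in animal 2. Gsto1-204, a processed transcript, had 21.8% in animal 1 and 43.5% in animal 2. The second quantification gave Gsto1-201 91.1% and 78.8%, so the direction was shared and the size was not.

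Gstp1-201, the coding transcript of Gstp1, held 69.6% and 54.9%, and the retained intron transcript Gstp1-203 held 28.8% and 42.8%. The second quantification gave Gstp1-203 10.4% and 0%, so the share of that transcript rested on the quantification used. It gave another retained intron transcript, Gstp1-206, 21.2% and 18.8%, against 0% in both animals in the first. In TPM the coding Gstp1-201 was at 89.7 in animal 1 and 86.0 in animal 2, but the second quantification gave it 67.9% and 25.3% of the gene's TPM. Whether the coding transcript was level between the animals was therefore not resolved.

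The sulfotransferases were led by Sult1a1, which sulfates phenols and spans chr7:126672865-126676432 on mm10. It was at 13.9 TPM in animal 1 and 16.7 TPM in animal 2 (15.3 ± 1.99), above every other Sult gene in both animals. Sult5a1, whose substrates are little known, was at 2.34 and 2.63 TPM. Sult4a1, an orphan form best known from brain, was at 1.44 and 1.60 TPM, with 110 and 109 counts. Sult3a1 and Sult3a2, neighbours on chromosome 10 of a class known in mice for amine sulfation, were at 3.47 and 2.17 TPM and at 2.03 and 0.88 TPM. The ranges of Sult3a1 and Sult5a1 overlapped.

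The steroid and sterol sulfotransferases had few counts. Sult2a1, the mouse relative of the human enzyme that sulfates the adrenal androgen DHEA, had 7 counts in animal 1 and 8 in animal 2. Sult2a8, of the same cluster on chromosome 7, was the highest of the Sult2 genes at 0.77 and 0.70 TPM, from 46 and 35 counts. Sult2b1, which sulfates cholesterol, had 9 and 6 counts, and Sult1e1, the estrogen sulfotransferase, had 9 and 11. All 9 Sult2 genes together reached 1.64 and 1.17 TPM, less than Sult5a1 alone in each animal. The supply side was present: the PAPS synthases Papss1 and Papss2 were at 18.5 and 16.5 TPM and at 4.51 and 3.86 TPM in animals 1 and 2.

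The glucuronosyltransferases were led by the Ugt1 locus, where genes with their own first exons share the 3' exons. Ugt1a1, the bilirubin-conjugating enzyme at chr1:88211959-88218997, was at 17.7 TPM in animal 1 and 18.6 TPM in animal 2 (18.1 ± 0.615), with 1315 and 1303 counts. Ugt1a6a, a phenol-conjugating form, was at 3.48 and 3.63 TPM, and its neighbour Ugt1a6b at 1.60 and 1.67 TPM. These 3 were nearly level between the animals, with ratios of 0.981, 0.968 and 0.982 for animal 2 over animal 1. Ugt1a7c was lower at 0.86 and 0.63 TPM, and no other Ugt1 gene reached 0.3 TPM.

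Within the locus the share of TPM from Ugt1a1 was 72.4% and 74.5%, that of Ugt1a6a 14.3% and 14.6%, and that of Ugt1a6b 6.55% and 6.71%. Because 57.7% of the 75-base stretches of Ugt1a1 are shared with other forms, the counts of single forms depend on how shared reads were assigned. The second quantification gave Ugt1a1 72.5% and 67.7% and Ugt1a6a 15.9% and 22.2%. The order of the 3 leading forms was the same in both animals and both quantifications. Summed over the locus, animal 1 was 1.06-fold higher (0.993 to 1.13) in the first quantification. In the second the ratio of animal 2 over animal 1 was 0.911 (0.854 to 0.972), so the interval held 1 in the first and not in the second.

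**Figure D3:**
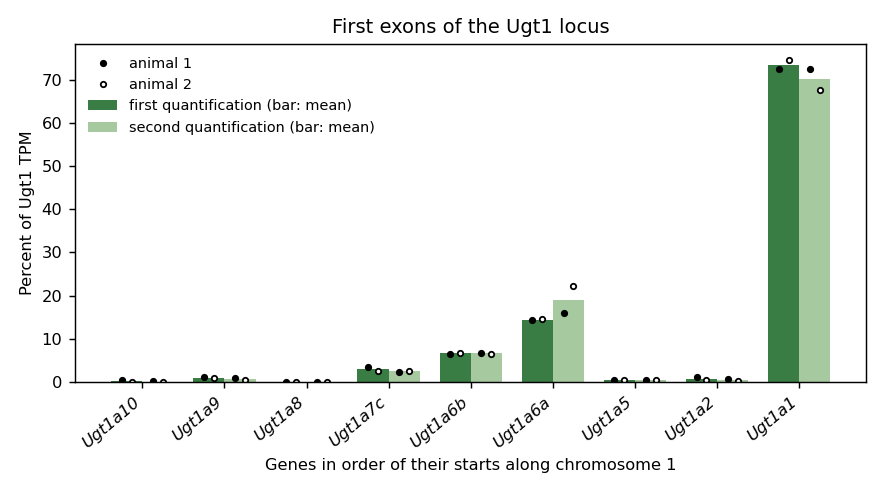
Percent of the Ugt1 locus TPM given to each gene, in order of gene starts, in the first (dark) and second (light) deposited quantification, with bars for the mean and points for animals 1 (filled) and 2 (open). Ugt1a1, the last start, takes 72.4% and 74.5% in the first quantification, and Ugt1a6a is the next highest in both.

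The Ugt2 cluster on chromosome 5, whose enzymes act on androgens and other steroids in liver, held 10 genes and reached 2.87 TPM in animal 1 and 1.63 TPM in animal 2 in all. Ugt2b36 was at 0.75 and 0.42 TPM, Ugt2b1 at 0.64 and 0.42 TPM, Ugt2b5 at 0.63 and 0.34 TPM and Ugt2b34 at 0.44 and 0.22 TPM. Of the Ugt3 genes, which in humans use other sugars than glucuronate, Ugt3a2 was at 0.60 and 0.11 TPM. Ugt8a, the galactosyltransferase of myelin lipid, had 1 and 0 counts. Every Ugt2 and Ugt3 gene was thus below 1 TPM in both animals.

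The animals were next compared member by member. Of the 21 members that averaged 100 counts or more, 0 were over 1.5-fold apart, against 5.68% of 12166 genes of that depth. Gstm2, at 1.495-fold, was just inside. At lower depth the picture differed: of the 13 members with a mean of 20 to under 100 counts, 9 were over 1.5-fold higher in animal 1, against 15.6% of 3492 genes of that depth. They were Sult3a1, Sult3a2, Sult1d1, Ugt1a7c, Ugt2b1, Ugt2b5, Ugt2b34, Ugt2b36 and Ugt3a2. None of the 13 was over 1.5-fold higher in animal 2, a direction for which the share of all genes was not counted. Of the 13, 12 were higher in animal 1, with Gstm6 the exception. Of all genes of that depth, 46.6% were higher in animal 2. Over all members averaging 20 counts or more, 9 of 34 were over 1.5-fold higher in animal 1, against 6% of 15658 genes. The median log2 ratio of the 13 was -0.77, against -0.05 for all genes of that depth.

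**Figure D4:**
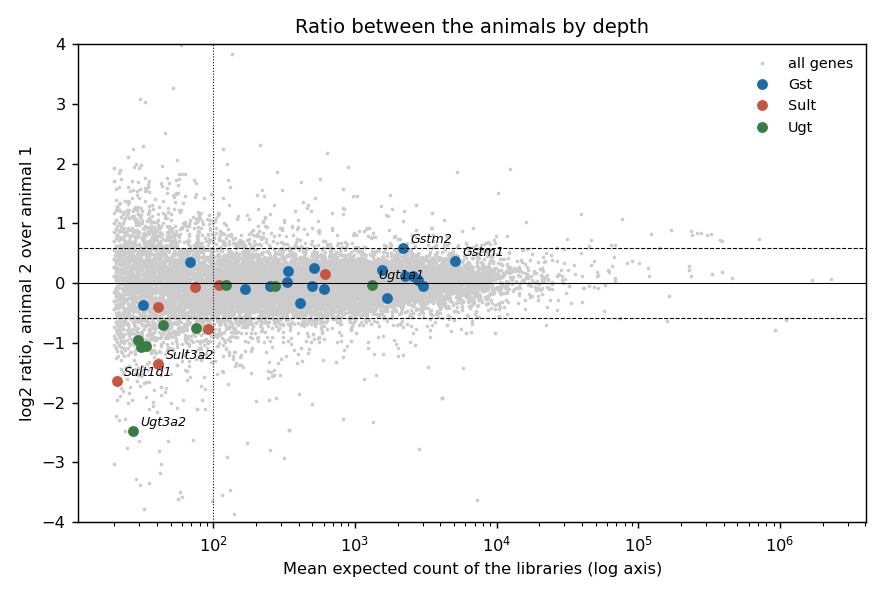
Log2 ratio of animal 2 over animal 1 (vertical axis) against mean expected count (log axis), for all genes with a mean of at least 20 counts (grey) and the members by family. Dashed lines mark 1.5-fold and the dotted line 100 counts, and genes with a log2 ratio beyond 4 in either direction lie outside the axis. Members to the right of the dotted line lie within the dashed lines, and 9 Sult and Ugt members to its left lie below them.

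The largest of these ratios was that of Ugt3a2, with 46.5 counts in animal 1 and 8 in animal 2, 5.59-fold higher in animal 1 (2.72 to 14.3). Sult1d1 had 32 and 10 counts, a 3.13-fold excess (1.55 to 7.38). Sult3a2 had 59.1 and 23 counts, a 2.56-fold excess (1.58 to 4.40), and Sult3a1 had 115 and 68, a 1.70-fold excess (1.26 to 2.34). In these genes the interval lay above 1, and for Ugt3a2, Sult1d1 and Sult3a2 it also lay above 1.5.

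Summing over genes reduces the counting error. The Ugt2 cluster held 213 counts in animal 1 and 114 in animal 2, a 1.89-fold excess (1.497 to 2.39). The Ugt3 pair held 65 and 14 counts, a 4.69-fold excess (2.61 to 9.06), and the Sult3 pair 174 and 91, a 1.93-fold excess (1.49 to 2.52). In contrast the Ugt1 locus, with 1865 and 1779 counts, was 1.06-fold apart. The Ugt1 sum was mostly Ugt1a1. Of its scarce genes, Ugt1a7c was 1.69-fold higher in animal 1 and Ugt1a2, with 20.5 and 6.86 counts, 2.88-fold higher. Ugt1a5 held 7.79 and 6.97 counts. Of the 75-base stretches of Ugt1a7c and Ugt1a2, 52.5% and 63.3% also occur in other members, so their counts depend on read assignment. The second quantification gave Ugt1a7c 68.0 and 46.8 counts and Ugt1a2 15.1 and 4.99.

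Summed liver and kidney markers moved in the same direction. By summed counts, X zone markers were also 1.46-fold, chromaffin markers 1.31-fold and pancreas markers 1.26-fold higher in animal 1. Schwann cell and macrophage markers were 1.15-fold and 1.13-fold higher there. The sums of adrenal cortex, adipocyte, brown adipocyte, endothelium, stroma and erythroid markers were higher in animal 2. Of 12 liver markers, 12 were above 1 TPM in both libraries, 11 were higher in animal 1 and 10 over 1.5-fold so, with a median log2 ratio of -0.90 and summed levels of 409 and 337 TPM. None was at 0. Albumin, the main plasma protein of liver, had 8146 counts in animal 1 and 5150 in animal 2. The summed level of the 10 kidney markers was 21.5 TPM for animal 1 but 0.50 TPM for animal 2, and 7 of them were at 0 counts in animal 2: Kap, Slc34a1, Umod, Slc12a1, Slc22a6, Miox and Nphs1. Kap, an androgen-regulated kidney protein gene, had 350 and 0 counts. The 8 pancreas markers summed to 22.6 and 18.8 TPM, with 2 at 0 counts in animal 1 and 4 in animal 2. Ctrb1 had 27 and 0 counts and Cela1 702 and 622, while Amy2a5 had 0 and 4.16. The 4 gut epithelium markers held 66 counts in each library. The 2 of them with a mean of at least 20 counts, Vil1 and Cdh17, were higher in animal 2. The part of these markers in the Ugt2, Ugt3, Sult3 and Sult1d1 ratios was not tested.

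**Figure D5:**
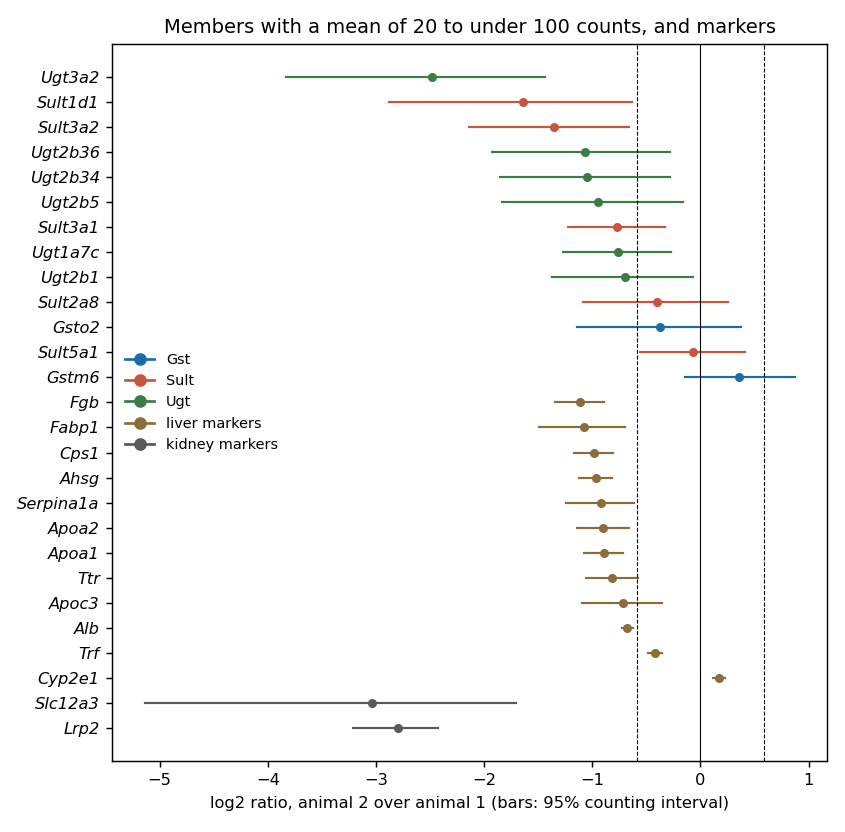
Log2 ratio of animal 2 over animal 1 with 95% counting intervals, for the 13 members with a mean of 20 to under 100 counts, the 12 liver markers and the kidney markers with a mean of at least 20 counts and some counts in animal 2. Dashed lines mark 1.5-fold. Of the members, 12 lie left of 0, as do 11 of the liver markers and both kidney markers.

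The windows of 4 Ugt2 genes hold AAGGTCA, letters bound by nuclear receptors including Nr5a1, close before the start. The letters were searched on both strands and are in 7 of 68 member windows (10.3%) against 4.72% of all windows. The 4 Ugt2 matches are not independent. The windows of Ugt2b37 and Ugt2b38 were 87.3% identical, those of Ugt2b38 and Ugt2b5 84.2% and those of Ugt2b36 and Ugt2b5 62.2%. The 60 bases before the start are shown with the match in capitals, since the genes lie in 1 cluster and their sequence is alike around it.
Ugt2b5: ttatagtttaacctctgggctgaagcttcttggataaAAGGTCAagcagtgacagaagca
Ugt2b36: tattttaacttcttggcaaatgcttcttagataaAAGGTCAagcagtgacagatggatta
Ugt2b37: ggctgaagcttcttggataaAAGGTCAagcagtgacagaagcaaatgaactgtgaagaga
Ugt2b38: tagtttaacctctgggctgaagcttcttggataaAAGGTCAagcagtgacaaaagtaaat
They lie on the minus strand at chr5:87140341-87140400, chr5:87092556-87092615, chr5:87254789-87254848 and chr5:87424204-87424263. Levels of members with these letters ran from Ugt2b38, with 1.3 and 0 counts, and Ugt2b37, with 4.14 and 4, to Gstk1 at 107 TPM. The other members with a match were Sult1e1 and Sult2a8. Nr5a1 itself was at 250 and 265 TPM. Here too a match describes letters and is not a shown binding site.

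The genes that supply, use or remove the conjugates were counted from lists by role, by direction at a mean of at least 100 counts. Of the glutathione synthesis and turnover genes, 12 of 18 had that depth, 5 higher in animal 2 and 7 in animal 1, with 0 over 1.5-fold apart and a median log2 ratio of -0.07. Over all genes of that depth the median was -0.01. The most abundant were Slc3a2, a cystine transporter subunit, at 141 and 190 TPM, Oplah at 26.3 and 44.7 TPM (2577 and 2450 counts, so the difference was in TPM alone) and the reductase Gsr at 29.8 and 32.0 TPM. Of the 12 membrane-bound glutathione transferases and relatives, 10 had that depth, of which animal 2 was the higher for 4 and animal 1 for 6, and the median log2 ratio was -0.05. Mgst1, the microsomal enzyme, was at 845 and 1121 TPM, above the sum of all cytosolic Gst genes in both animals. Eef1g was at 110 and 115 TPM, Mgst2 at 64.7 and 65.5 TPM. Gdap1 was 1.52-fold higher in animal 1.

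For sulfate, 10 of 12 activation and supply genes had that depth, with 5 higher in each animal and a median log2 ratio of -0.11. Cdo1, which starts cysteine oxidation to sulfate, was at 122 and 184 TPM, Bpnt1 at 35.7 and 44.4 TPM and Sqor at 24.6 and 31.1 TPM. Of the sulfatases, 10 of 12 measured had it, with 5 higher in each and a median of -0.00259, among them Arsb at 14.3 and 16.2 TPM and Sumf1 at 12.4 and 15.5 TPM. For glucuronate, 7 of 8 had it, 2 higher in animal 2 and 5 in animal 1, at a median of -0.20. Ugp2 was at 23.2 and 29.4 TPM, Ugdh, which makes UDP-glucuronate, at 24.2 and 28.6 TPM and Uxs1 at 17.4 and 16.8 TPM. None of the sulfate, sulfatase or glucuronate genes at that depth was over 1.5-fold apart.

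Of the export and import genes, 7 of 14 measured had that depth, with 3 higher in animal 2 and a median of -0.04, led by Abcc5 at 15.9 and 23.0 TPM, Slco3a1 at 10.7 and 8.61 TPM and Slco2b1 at 6.28 and 7.97 TPM. Of 19 regulators, 14 had it and 7 were higher in each animal, with a median of 0.01, led by Nr5a1, Nfe2l1 at 209 and 284 TPM and Nfe2l2 at 35.96 and 43.1 TPM. Ppara was 2.38-fold and Bach2 1.52-fold higher in animal 2. Of 12 Nfe2l2 targets outside the families, 11 had it, 5 higher in animal 2 and 6 in animal 1, at a median of -0.05, led by Me1 at 439 and 422 TPM, Prdx1 at 275 and 283 TPM and Srxn1 at 173 and 268 TPM. Hmox1 was 1.58-fold higher in animal 2. Over all these lists, 4 of 78 genes at this depth were over 1.5-fold apart, Gdap1, Ppara, Bach2 and Hmox1. That is 5.13%, near the 5.68% of all genes.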

How the data were processed

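Total RNA-seq of adrenal gland from 1 group of 2 libraries was used. The authors deposited, per the file headers, expected counts and TPM per gene and transcript with the percent of each transcript in its gene, and TPM bounds. The second quantification deposited estimated counts and TPM per transcript. Per the labels the build is mm10, with GENCODE M21 in the deposited list of files. The aligner and its version are not given in the sources used here, nor is the level of the bounds.

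Members and gene lists were chosen with earlier results of these data known. Members with a mean of at least 1 TPM, or at least 20 counts, were named with values, and of each list the 3 most abundant and any over 1.5-fold apart at 100 counts. A list member is not reported here, though its list's counts and median include it. Symbols came from the second transcript table, which covered 55450 genes. Other rows without a symbol there, spike-ins aside, held 8581 and 9278 counts and were left out of library sizes. ERCC spike-ins were 0.909% and 0.760% of counts.

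Expected counts were rounded for scaling in edgeR 4.0.16 (factors 1.02 and 0.981) and used as deposited for ratios with a prior of 0.5. DESeq2 1.42.0 size factors were an alternative. Intervals at 95% are exact Clopper-Pearson. On simulated counts for 55536 genes, of 200 changed genes 100% of those changed 4-fold and 97% of those changed 2-fold were recovered for animal 2 over animal 1. PCR reads are not independent molecules.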

Additional observations from a re-analysis of the deposited data

Results flagged for a closer look

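The pseudogene row Gstm2-ps1, left out of the members because it has no protein-coding transcript, held 4.72 expected counts in animal 1 and 6.74 in animal 2. Both are above the limit of 3 counts that a count of 0 allows, and the other 6 left-out rows were at 0 counts in both libraries.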

How the results depend on the processing

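No paired analysis was possible because the labels give 1 group. The family shares of nuclear protein-coding TPM moved with the unit: Gst was 0.235% in the second quantification and 0.107% by expected counts, Sult 0.00700% and 0.00451%, and Ugt 0.00706% and 0.00886%. Gene levels moved by more than their SD in the second quantification for 24 of 25 named members. Gstp1 moved to 316, Gsta3 to 102 and Gstp2 to 81.7 TPM, which put Gstp2 above Gstz1 at 77.2 TPM. The ranges of Gstp1 and Gstm1, which overlapped in the first quantification, were apart in the second. There Gstp1 was at 321 and 310 TPM and Gstm1 at 207 and 237 TPM. The TPM scales differ, as nuclear protein-coding genes took 60.9% and 58.1% of TPM there, against 31.7% and 35.6% in the first. With both rescaled to those genes, the second over the first was 1.25 for Gstp1, 1.15 for Gsta3 and 2.10 for Gstp2. The count of members over 1.5-fold apart, 0 at a mean of 100 counts, was 1 with DESeq2 factors, ERCC totals and deposited TPM (Gstm2 each time) and 1 with the second quantification (Gstp2). It was 9 at a mean of 20 counts and 23 with no minimum. That last count takes in members such as Ugt8a, with 1 and 0 counts. It has no share of all genes beside it, so it is not a result about the families. With a mean of 20 counts the median log2 ratio was -0.40 for Sult and -0.76 for Ugt. ERCC totals moved the median of all genes by 0.20 and deposited TPM by 0.13 on the log2 scale, and 10 and 9 of 34 members then changed sign. The 9 low members higher in animal 1 numbered 6 with ERCC totals and 8 with deposited TPM, settings added after the data were seen, and 9 otherwise. Quantifications over 1.5-fold apart, 2 members (Gstp2 and Gstt2, of 25, against 11.2% of 13326 genes), became 1 at 2-fold. Leaving out either replicate gave 0 to 3 members for that count, 24 to 25 detected members, and shares of 0.218% to 0.232% for Gst, 0.00722% to 0.00809% for Sult and 0.00752% to 0.00887% for Ugt. DESeq2 factors were 1 in both libraries.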
